A study of Mus musculus with 6 samples.

Results

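Cells hold their shape and grip the matrix through actin filaments, the myosin motors that pull on them, and the focal adhesions where they are tied to integrins. The 41 genes described here encode parts of that system: both cytoplasmic actins, proteins of filament assembly, crosslinkers, nonmuscle myosin II, focal adhesion proteins, small GTPases with their kinases, linkers to the membrane, and the transcription factor Srf. They were taken as a given list of symbols from a table of 46095 gene symbols, and all 41 passed the filter on low counts. The libraries come from the nucleus pulposus, the gel-like centre of the intervertebral disc, with cells isolated from mice 8 weeks of age, grown in medium with fetal bovine serum and harvested at passage 2. Chsy3, which encodes a chondroitin sulfate synthase that builds the sugar chains of matrix proteoglycans, was wild type, heterozygous or knockout, with 2 libraries per genotype, all labelled male. How the Chsy3 allele was made, in which cells it is deleted, and whether replicate libraries stem from different animals or cultures the labels do not say, so the p-values below measure the spread between libraries, which may be technical.

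Actin monomers add to the ends of filaments, a step sped up by formins and Ena/VASP proteins and fed by profilin, while cofilin severs old filaments. Alpha-actinin and filamin bundle and crosslink filaments, and nonmuscle myosin II slides them against each other to make contractile stress fibres. At focal adhesions talin and kindlin switch integrins on, vinculin, zyxin and tensin strengthen the link to actin under load, and focal adhesion kinase and the complex of integrin-linked kinase, PINCH and parvin relay signals. RhoA acts through the ROCK kinases on myosin and through LIM kinase on cofilin, and Srf transcribes many genes of the system with cofactors that monomeric actin holds inactive.

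Total counts ranged from 29622117 to 33899611 per library, and levels are given as CPM, counts scaled to library sizes that were adjusted with TMM factors (0.974 to 1.02). Chsy3 itself had counts of 284 and 284 (wild type), 167 and 197 (heterozygous), and 118 and 76 (knockout), a log2 change of -1.53 ± 0.20 (SE) in knockout against wild type. Reads of Chsy3 therefore remained in the knockout libraries. The Y-linked genes Ddx3y, Uty, Kdm5d and Eif2s3y had reads in all wild-type and knockout libraries and 0 in both heterozygous libraries, where Xist stood at 1080.0 and 1071 CPM against 650.5 to 663 CPM in the others. The absence of Y-linked reads goes against the male label of the heterozygous libraries. In every comparison that uses them, the Chsy3 genotype and this difference in sex-linked transcripts cannot be told apart. Knockout against wild type was not free of such differences. In the test described below, Ddx3y (log2 change 0.35 ± 0.11) and Eif2s3y (0.38 ± 0.12) were higher in knockout. Uty (0.34 ± 0.17), Kdm5d (0.037 ± 0.16) and Xist (-0.015 ± 0.023) did not pass there. The wild-type and knockout libraries had many Xist reads beside Y-linked ones. Xist thus does not bear out their male label either, and the cause was not tested. Of 16 markers of nucleus pulposus and notochord cells, 10 had reads in all libraries and 9 were tested, and the list summed to 464 and 449 CPM in wild type, 566 and 565 CPM in the heterozygous libraries and 1113 and 1097 CPM in knockout. Of the 9, 3 rose and 3 fell in knockout and 6 rose and 3 fell in heterozygous against wild type. The log2 changes in knockout ran from -2.55 to 1.55 with a median of 0.25, so the sum does not describe the list as a whole there. Beside the 10 markers with reads in all libraries, T, Shh and Noto were at 0 in all 6. Acan had 8 counts in 1 wild-type library and 0 in the others. A count of 0 allows a level of up to 0.101 CPM in the shallowest library, a limit that covers counting error only. Fibroblast markers (12 of 12 tested, none at 0) summed to 25058 and 25525 CPM in wild type, 31926 and 31159 CPM in the heterozygous libraries and 15282 and 15216 CPM in knockout. The 12 did not move together. Against wild type 5 rose and 7 fell in knockout, with changes from -1.16 to 1.05, and 9 rose and 2 fell in heterozygous. Macrophage markers (17 of 18 tested, Aif1 at 0) summed to 15504 and 15182 CPM, 18133 and 18026 CPM, and 17593 and 17399 CPM in the same order. Their sum was lower in knockout than in heterozygous, though 12 of the 17 rose and 3 fell, so it does not describe most of the list there. Adipocyte markers (8 of 10 tested, Lep at 0) summed to 212 and 209 CPM, 389 and 392 CPM, and 512 and 508 CPM, and all 8 rose in both comparisons with wild type, with medians of 1.69 in knockout and 1.28 in heterozygous. The part of these marker lists in the values of the 41 genes was not tested. In such bulk RNA, fewer cells of a type and less RNA per cell cannot be told apart.

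The genes were tested with edgeR's quasi-likelihood F test on all 16061 genes left by the filter, with Benjamini-Hochberg adjustment and a threshold of 0.05, and changes are log2 fold changes ± SE. In knockout against wild type 26 of the 41 genes fell, 5 rose and 10 did not pass the test. Among all tested genes 38.0% passed, 18.9% lower and 19.2% higher. The median change of the 41 was -0.25, against -0.0031 over all tested genes, and 36 of the 41 had knockout libraries that did not overlap the wild-type ones, against 66.6% of all tested genes. Heterozygous against wild type gave 26 lower, 3 higher and 12 that did not pass, where 38.9% of all tested genes passed, 19.7% lower and 19.2% higher. The median of the 41 was -0.18, against -0.0029 over all tested genes, and 34 of the 41 did not overlap, against 67.0%. Knockout against heterozygous gave 17 lower, 12 higher and 12 that did not pass, where 37.1% of all tested genes passed, 17.9% lower and 19.1% higher. The median was -0.0099, against 0.012 over all genes, and 33 of the 41 did not overlap, against 65.7%. With library totals alone as the scaling, the last comparison gave 11 lower and 17 higher among the 41, and 2256 lower and 4126 higher in place of 2881 and 3070 among all genes. The 3 comparisons share libraries, so their counts are not independent of each other.

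Most of the changes were small. A change of at least 2-fold was seen for 1 of the 41 in knockout against wild type, namely Myh10, for none in heterozygous against wild type and again for Myh10 in knockout against heterozygous. Summed over the 41 genes, the level was 27531 and 27644 CPM in wild type, 24417 and 24333 CPM in the heterozygous libraries and 24214 and 24155 CPM in knockout. The wild-type libraries were the highest, and the other genotypes lay close together. At these levels small differences pass the test: 35 of the 41 had a mean of at least 100 CPM, and of the 2173 genes at that level 34.9% were lower and 36.7% higher in knockout against wild type. The 35 gave 22 lower and 5 higher there. For heterozygous against wild type they gave 21 lower and 3 higher, where 32.7% and 35.9% of genes at that level were lower and higher. For knockout against heterozygous they gave 16 lower and 11 higher, against 31.5% and 34.8%. Without the X-linked genes Flna and Msn, the 39 autosomal genes gave 25 lower and 5 higher in knockout against wild type, 24 lower and 3 higher in heterozygous against wild type, and 16 lower and 11 higher in knockout against heterozygous. A fit without the heterozygous libraries gave 26 lower and 5 higher in knockout against wild type.

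**Figure D1:**
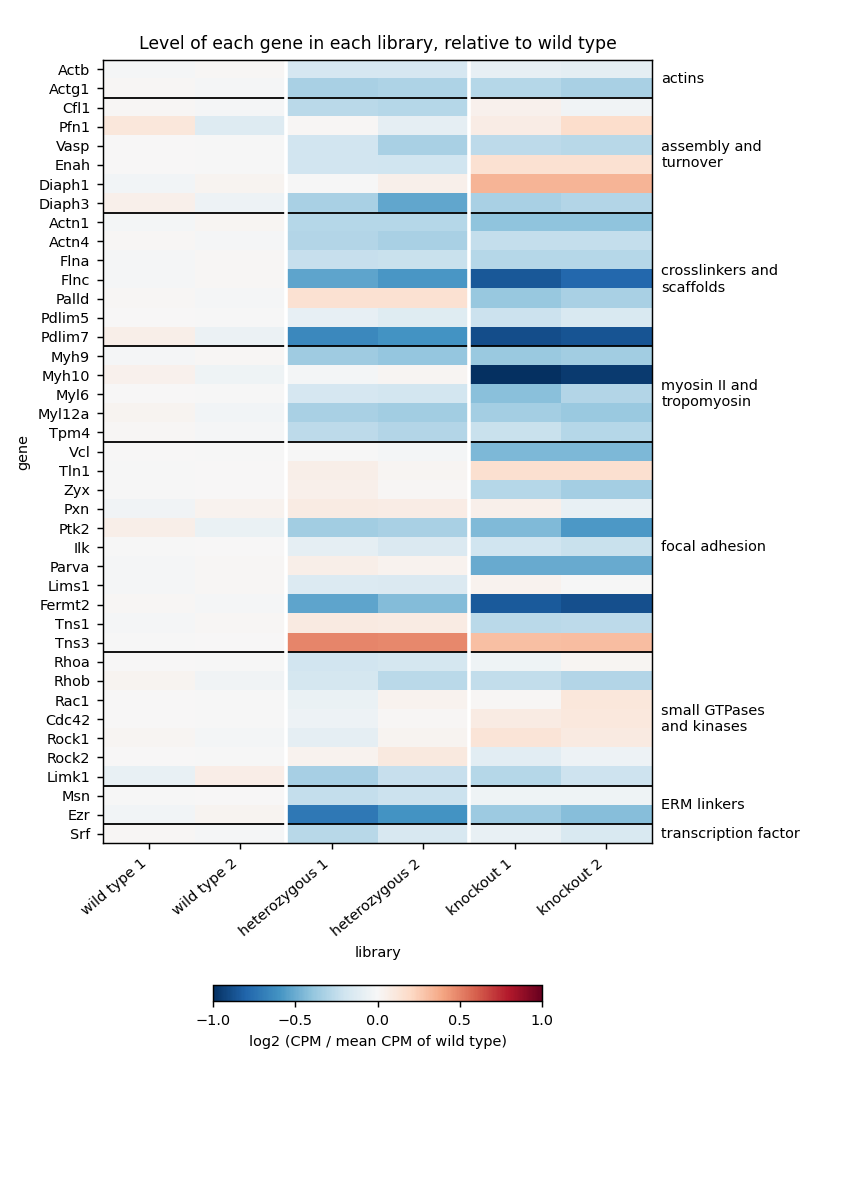
Level of the 41 genes (rows, grouped by role) in each of the 6 libraries (columns), as the log2 ratio of CPM to the mean CPM of wild type, with blue for lower and red for higher and a colour scale that ends at -1 and 1. Libraries of a genotype look alike, the crosslinkers and myosin II genes are blue in knockout, and Tns3 is red in both the heterozygous and the knockout libraries.

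Srf sits at the head of this list as the factor that, with its actin-sensing cofactors, binds the CArG box, a short AT-rich motif. Its own transcript stood at 84.1 and 82.6 CPM in wild type, 68.8 and 74.6 CPM in heterozygous and 79 and 74.9 CPM in knockout. The wild-type libraries were highest, by a margin that passed the test in the heterozygous (-0.22 ± 0.054, adjusted p = 0.0011) and not in the knockout libraries (-0.11 ± 0.053, adjusted p = 0.0873). Without the heterozygous library 1 the former gave an adjusted p of 0.0543. Among the other genes of this axis, 14 cofactors and immediate targets were tested, of which 6 fell (42.9%) and 1 rose (7.14%) in knockout against wild type, where 18.9% of all tested genes fell and 19.2% rose. The same shares of all genes stand behind the counts of the other lists in that comparison. For the list counts in heterozygous against wild type these shares are 19.7% lower and 19.2% higher. For knockout against heterozygous they are 17.9% lower and 19.1% higher. All these shares were larger among genes with a mean of at least 100 CPM, as given above, and the lists were not split by level. The immediate target Acta2, smooth muscle actin, fell by 0.73 on the log2 scale, Cyr61 by 0.95, Ctgf by 0.84 and Egr1 by 1.28. Fos (-0.60) and Elk4 (-0.19) completed the 6, and Elk1 (0.22) was the gene that rose. Mkl1 and Mkl2, the actin-binding cofactors, did not pass (log2 changes of 0.048 and 0.048). The heterozygous libraries had 6 lower and 2 higher than wild type, with Egr1 at -1.40 ± 0.067, Ctgf at -0.82 ± 0.024, Acta2 at -0.50 ± 0.019, Cyr61 at -0.40 ± 0.025, Junb at -0.44 ± 0.048 and Fos at -0.41 ± 0.12, and with Fosb (0.94 ± 0.30) and Mkl1 (0.14 ± 0.043) on the other side.

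Promoters from 250 bases before to 50 bases after the start site were taken from RefSeq (GRCm38.p6) for 34 of the 41 genes, 44 promoters in all, and searched on both strands for the CArG box. It was found in 5 of the 44 promoters (11.4%), of 5 genes, against 535 of all 32851 promoters (1.63%) and 1.29% of the promoters of tested genes. Actb, Diaph1, Parva, Ptk2, Pxn, Rac1 and Rock1 had no promoter to search. The promoters are printed here around the box, with the box in capitals, to show the match that sets Actg1, Fermt2, Myl6, Srf and Vcl apart among the 34 genes searched. The boxes begin 90, 204, 50, 82 and 227 bases before the start site in that order, and Srf has another at 62. The Myl6 box lies in a promoter inside the gene (chr10:128492960-128493259), and the promoter at its annotated start (chr10:128493837-128494136) has none.
Actg1 (chr11:120348531-120348630, minus strand): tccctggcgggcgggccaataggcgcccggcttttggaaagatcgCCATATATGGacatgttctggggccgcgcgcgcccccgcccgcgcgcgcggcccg
Fermt2 (chr14:45530215-45530314, minus strand): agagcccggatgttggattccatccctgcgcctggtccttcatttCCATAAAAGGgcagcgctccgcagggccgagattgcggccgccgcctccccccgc
Myl6 (chr10:128493005-128493104, minus strand): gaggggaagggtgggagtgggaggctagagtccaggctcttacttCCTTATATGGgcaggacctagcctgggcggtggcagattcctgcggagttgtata
Srf (chr17:46556170-46556289, minus strand): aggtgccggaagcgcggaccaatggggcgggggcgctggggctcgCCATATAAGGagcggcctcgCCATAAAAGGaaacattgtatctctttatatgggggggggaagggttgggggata
Vcl (chr14:20929148-20929225, plus strand): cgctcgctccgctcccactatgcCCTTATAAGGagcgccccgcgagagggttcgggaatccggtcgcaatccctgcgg
The match is a description of the letters and shows no binding. Of the 5 genes, 4 fell and none rose in knockout against wild type, with a median of -0.35, and of the 29 others with a promoter 19 fell and 4 rose, with a median of -0.25. Against wild type the heterozygous libraries had 4 lower and none higher of the 5 (median -0.22), and 20 lower and 3 higher of the 29 (median -0.22). The TEAD motif GGAATG, read on both strands, was in 9 of the 44 promoters (20.5%) of 8 genes, against 14.7% of all promoters.

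The actins are the filament itself. Actb (chr5) was the most abundant of the 41, at rank 12 of the 16061 tested genes by CPM, with 5566 and 5658 CPM in wild type, 4993 and 4987 CPM in heterozygous and 5288 and 5253 CPM in knockout. All 3 genotypes were apart, with wild type highest, knockout in the middle and heterozygous lowest. The fall was small, -0.091 ± 0.016 in knockout (1.06-fold, adjusted p = 1.31e-05) and -0.17 ± 0.016 in heterozygous against wild type (1.12-fold), and knockout was above heterozygous by 0.079 ± 0.016. Actg1 (chr11), the other cytoplasmic actin, stood at 1094 and 1079 CPM in wild type, 868 and 876 CPM in heterozygous and 889 and 870.1 CPM in knockout. Here the heterozygous and knockout libraries overlapped and both lay below wild type, by -0.30 ± 0.022 in knockout (adjusted p = 2.22e-15) and -0.32 ± 0.022 in heterozygous. Both actins thus fell in both comparisons with wild type, and of the pair only Actb passed the test in knockout against heterozygous. Actg1 has 6 near-identical copies in the table, mostly pseudogenes, with 68.3 CPM in all, and how reads were divided among them is not known.

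Among the 6 genes of filament assembly and turnover, 2 rose, 2 fell and 2 did not pass in knockout against wild type; 4 fell and 2 did not pass in heterozygous against wild type; and 3 rose and 3 did not pass in knockout against heterozygous. Diaph1, a formin that RhoA switches on, had the largest rise of the 41 genes in knockout. It stood at 146 and 152 CPM in wild type, 148 and 154 CPM in heterozygous and 189 and 188 CPM in knockout. The wild-type and heterozygous libraries overlapped and both knockout libraries lay above them, by 0.34 ± 0.038 over wild type (1.27-fold, adjusted p = 3.41e-10). Diaph3, its relative, with a role in dividing cells as well, went the other way: its libraries stood at 47.8 and 44.6 CPM in wild type, 37 and 32.3 CPM in heterozygous and 37 and 37.8 CPM in knockout. Wild type was highest, and the fall was -0.31 ± 0.073 in knockout and -0.42 ± 0.074 in heterozygous (1.34-fold, adjusted p = 1.01e-05). Proliferation markers (14 of 14 tested) summed to 1323 and 1343 CPM in wild type, 996 and 1018 CPM in the heterozygous libraries and 1441 and 1444 CPM in knockout; their part in the Diaph3 values was not tested.

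Enah, the Ena/VASP protein that lengthens filaments at leading edges and adhesions, stood at 111 and 111 CPM in wild type, 97.2 and 96.9 CPM in heterozygous and 124 and 124 CPM in knockout. The 3 genotypes were apart, with heterozygous lowest and knockout highest; Enah rose in knockout (0.15 ± 0.043), fell in heterozygous (-0.20 ± 0.044), and was 1.27-fold higher in knockout than in heterozygous (0.35 ± 0.044, adjusted p = 9.55e-09, the largest rise of that comparison). Vasp, of the same family, fell in both: its levels were 194 and 194 CPM in wild type, 169.8 and 155 CPM in heterozygous and 162 and 160.1 CPM in knockout, with changes of -0.27 ± 0.039 and -0.26 ± 0.039. Cfl1, cofilin, which severs filaments, was low in the heterozygous libraries alone, with 1209 and 1193 CPM in wild type, 997 and 984 CPM in heterozygous and 1240.4 and 1172 CPM in knockout. Its knockout libraries lay on both sides of the wild-type ones (0.0059 ± 0.023, adjusted p = 0.874), and the heterozygous libraries fell below wild type by 1.21-fold (-0.28 ± 0.023, adjusted p = 1.57e-13), with knockout above heterozygous by 0.28 ± 0.023. Pfn1, profilin, passed no test and had the lowest level of the 41, 13 and 10.9 CPM in wild type, 12 and 11.2 CPM in heterozygous and 12.6 and 13.5 CPM in knockout, with standard errors of about 0.13.

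**Figure D2:**
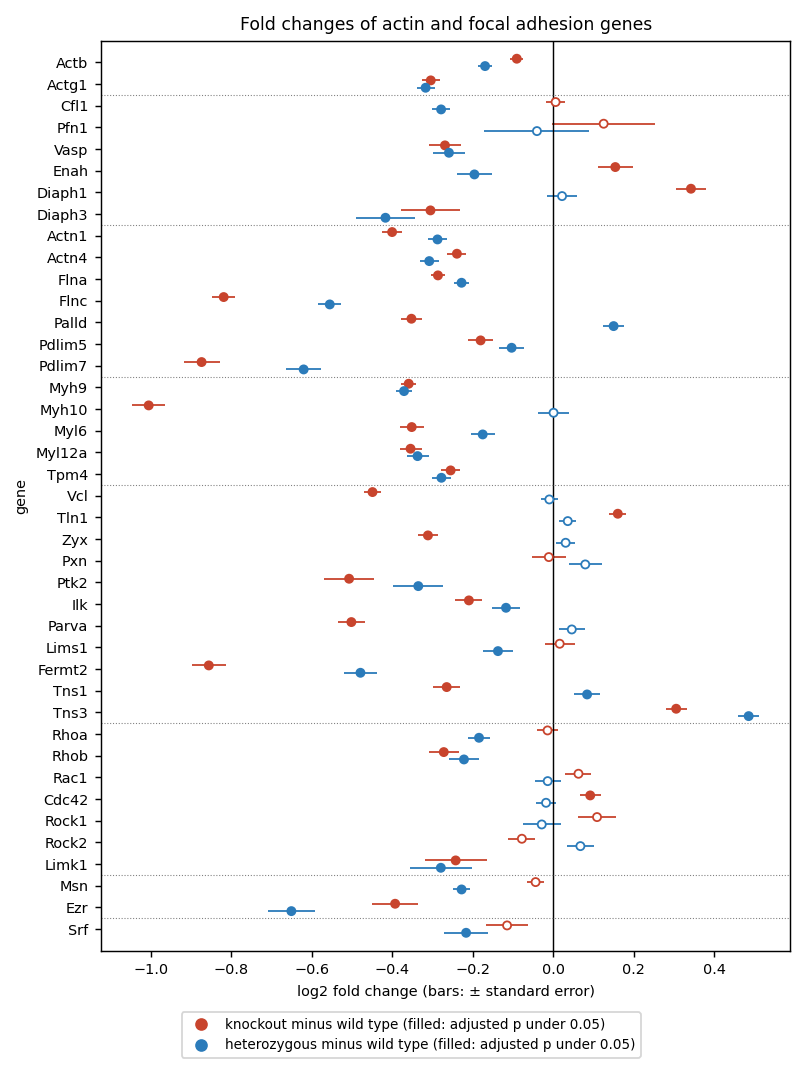
Log2 fold change of each of the 41 genes in knockout (red) and heterozygous (blue) against wild type, with bars for ± 1 standard error and filled points for an adjusted p under 0.05; both colours use the same wild-type libraries. Most filled points lie left of 0, Myh10, Vcl and Parva are low in red only, and Tns3 lies right of 0 in both.

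The 7 crosslinkers and stress fibre scaffolds fell together in knockout against wild type: all 7 passed, with changes from -0.87 to -0.18 and a median of -0.35. In heterozygous against wild type 6 fell and Palld rose, and in knockout against heterozygous 6 fell and Actn4 rose. Pdlim7, a PDZ and LIM domain protein of stress fibres, stood at 173 and 159 CPM in wild type, 106 and 110.0 CPM in heterozygous and 89.7 and 91.5 CPM in knockout. Both lower genotypes were clear of wild type, with knockout lowest, a 1.83-fold fall in knockout (-0.87 ± 0.045, adjusted p = 1.64e-20) and a 1.54-fold fall in heterozygous (-0.62 ± 0.044). Flnc, filamin C, the filamin best known from muscle, stepped down in the same order, with 530.0 and 540.1 CPM in wild type, 372 and 357 CPM in heterozygous and 297 and 310.0 CPM in knockout. No library overlapped another genotype, and the fall was 1.76-fold in knockout (-0.82 ± 0.029, adjusted p = 3.02e-26), 1.47-fold in heterozygous (-0.56 ± 0.029) and -0.26 ± 0.029 between knockout and heterozygous. Flna, the widely expressed filamin on the X chromosome, was 5.64 times as abundant as Flnc per length in wild type and fell less. It stood at 2991 and 3045 CPM in wild type, 2569 and 2585 CPM in heterozygous and 2476 and 2473 CPM in knockout, changes of -0.29 ± 0.018 and -0.23 ± 0.018.

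Actn1, alpha-actinin, the main bundling protein of stress fibres, stood at 738 and 758 CPM in wild type, 612 and 613 CPM in heterozygous and 567 and 566 CPM in knockout, and fell by 1.32-fold in knockout (-0.40 ± 0.024) and 1.22-fold in heterozygous (-0.29 ± 0.024). Its paralog Actn4 stood at 813 and 803 CPM in wild type, 660.0 and 645 CPM in heterozygous and 685 and 684 CPM in knockout. It was lowest in the heterozygous libraries (-0.31 ± 0.024) and fell in knockout too (-0.24 ± 0.023). Palld, palladin, a scaffold that binds alpha-actinin, differed in direction between the comparisons. Its libraries stood at 478 and 468 CPM in wild type, 524 and 525 CPM in heterozygous and 364 and 377 CPM in knockout. The heterozygous ones were highest and the knockout ones lowest, with no overlap: 0.15 ± 0.027 in heterozygous (adjusted p = 1.05e-05), -0.35 ± 0.027 in knockout (adjusted p = 9.05e-15) and -0.50 ± 0.027 between knockout and heterozygous (1.42-fold). Pdlim5 changed least, by -0.18 ± 0.031 and -0.10 ± 0.031 from 321 and 320.2 CPM in wild type. Several small steps of this group rest on single libraries or on the scaling. In knockout against heterozygous, Actn4 (0.069 ± 0.024) missed the threshold without the heterozygous library 2 (adjusted p = 0.182) and without either knockout library (0.0540 and 0.0562), Pdlim5 (-0.077 ± 0.031) without the heterozygous library 1 (0.246) or the knockout library 1 (0.405), and Flna (-0.059 ± 0.018) without the heterozygous library 2 (0.0957), while with library totals alone Flna turned to 0.0055 and neither Actn1 (-0.049, adjusted p = 0.103) nor Pdlim5 (-0.013, adjusted p = 0.783) passed; in heterozygous against wild type, Pdlim5 missed it without the heterozygous library 2 (0.0818).

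The wider set of crosslinkers, tropomyosins and scaffolds outside the 41 was counted from a list of 31 genes, of which 29 were tested. In knockout against wild type 17 fell and 2 rose, with a median of -0.18. Tagln, transgelin, fell by 1.04 on the log2 scale, the calponin Cnn3 by 0.97 and the tropomyosin Tpm1 by 0.58. The genes that rose were Tpm3 (0.33 ± 0.032) and Synpo2 (0.91 ± 0.20). The heterozygous libraries gave 16 lower and 7 higher, with Tagln (-0.66 ± 0.026) and Cnn3 (-0.55 ± 0.028) among the lower and Synpo (0.46 ± 0.029) among the higher. Between knockout and heterozygous 19 fell and 6 rose. Markers of smooth muscle cells and pericytes (10 of 11 tested, none at 0) summed to 3810 and 3748 CPM in wild type, 2701 and 2730 CPM in the heterozygous libraries and 2262 and 2225 CPM in knockout. Of the 10, 6 fell and 1 rose in knockout against wild type, with a median of -0.36. In heterozygous against wild type 3 fell and 2 rose, with a median of 0.14, so the sum does not describe most of the list there. These markers include Tagln, Acta2 and Cnn1, and their part in the crosslinker and myosin values was not tested.

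All 5 genes of nonmuscle myosin II and tropomyosin fell in knockout against wild type, with a median of -0.35, and 4 of the 5 fell in heterozygous against wild type. Myh10, the heavy chain of nonmuscle myosin IIB, had the largest change of the 41 genes. It stood at 199.8 and 189 CPM in wild type, 192 and 197 CPM in heterozygous and 93.5 and 100.2 CPM in knockout. The wild-type and heterozygous libraries overlapped, and both knockout libraries lay 2.01-fold below wild type (-1.01 ± 0.041, adjusted p = 5.29e-24) and 2.01-fold below heterozygous (-1.01 ± 0.041, adjusted p = 8.74e-24). The heterozygous change was 0.00085 ± 0.039 (adjusted p = 0.99). Myh9, the heavy chain of nonmuscle myosin IIA and the more abundant, showed another pattern. Its levels were 2839.6 and 2878 CPM in wild type, 2232 and 2190.2 CPM in heterozygous and 2210.5 and 2247 CPM in knockout. Heterozygous and knockout libraries overlapped, and both genotypes lay about as far below wild type, -0.36 ± 0.019 in knockout (adjusted p = 4.37e-20) and -0.37 ± 0.019 in heterozygous; between them the change was 0.012 ± 0.019, which did not pass.

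The light chains and the tropomyosin fell in both genotypes, as Myh9 did. Myl6, the essential light chain, stood at 452 and 448 CPM in wild type, 400.0 and 396 CPM in heterozygous and 337 and 368 CPM in knockout, falling by 0.35 in knockout and 0.18 in heterozygous on the log2 scale. Myl12a, a regulatory light chain, stood at 510.1 and 492 CPM in wild type, 400.1 and 393 CPM in heterozygous and 396 and 388 CPM in knockout, with changes of -0.35 ± 0.027 and -0.34 ± 0.027. Tpm4, a tropomyosin of nonmuscle filaments, stood at 949 and 939 CPM in wild type, 787 and 770.2 CPM in heterozygous and 807 and 774 CPM in knockout, with changes of -0.25 ± 0.024 and -0.28 ± 0.024. For these 3 genes every wild-type library was above every other library. Of 9 other myosin II subunits and regulators, all tested, 2 fell and 2 rose in knockout, 22.2% each way and near the 18.9% and 19.2% of all tested genes: Myl9 (-0.48 ± 0.03) and Ppp1r12a (-0.15 ± 0.042) fell, and Mylk, myosin light chain kinase (0.63 ± 0.049), and Myl12b (0.37 ± 0.045) rose. Myl12a and Myl12b overlap on the same strand over 13.8% of the exons of Myl12a, so reads of this pair, which moved in opposite directions, may have been divided unequally; Myl6 has 5 near-identical copies with 50.1 CPM in all. The heterozygous libraries had Myl9 lower (-0.34 ± 0.03), and Mylk (0.59 ± 0.05), Myl12b (0.41 ± 0.045) and Myh11 (0.23 ± 0.091) higher than wild type.

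Focal adhesion genes were mixed. Of 11, 7 fell, 2 rose and 2 did not pass in knockout against wild type, 4 fell, 2 rose and 5 did not pass in heterozygous against wild type, and 8 fell and 2 rose in knockout against heterozygous. Fermt2, kindlin-2, which activates integrins together with talin, had the largest fall in both comparisons with wild type among them. Its libraries stood at 172 and 169.8 CPM in wild type, 118 and 126 CPM in heterozygous and 95.7 and 93 CPM in knockout. The genotypes were apart and stepped down from wild type to heterozygous to knockout, with a 1.81-fold fall in knockout (-0.86 ± 0.042, adjusted p = 6.09e-21) and a 1.39-fold fall in heterozygous (-0.48 ± 0.042). Tln1, talin, its partner, moved the other way and little, from 1213 and 1216 CPM in wild type to 1262 and 1228 CPM in heterozygous and 1359 and 1356 CPM in knockout. It rose in knockout (0.16 ± 0.021, adjusted p = 2.22e-08) and did not pass in heterozygous (0.036 ± 0.021).

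Vcl, Parva and Zyx were low in the knockout libraries alone. Vcl, vinculin, which reinforces adhesions under tension, stood at 1053 and 1044 CPM in wild type, 1047 and 1035 CPM in heterozygous and 767 and 768 CPM in knockout. Both knockout libraries were below all others, by -0.45 ± 0.022 against wild type (1.37-fold, adjusted p = 3.56e-21) and -0.44 ± 0.022 against heterozygous, while the heterozygous libraries overlapped wild type (-0.0096 ± 0.022). Parva, alpha-parvin, which joins integrin-linked kinase to actin, repeated this with 237 and 241 CPM in wild type, 249 and 245 CPM in heterozygous and 169 and 169 CPM in knockout. Its fall was 1.42-fold in knockout (-0.50 ± 0.033, adjusted p = 1.08e-16) and 1.46-fold against heterozygous (-0.55 ± 0.033), with 0.046 ± 0.033 between heterozygous and wild type. Zyx, zyxin, a sensor of strained stress fibres, went from 736 and 738 CPM in wild type and 762 and 745 CPM in heterozygous to 606 and 582 CPM in knockout (-0.31 ± 0.024 against wild type and -0.34 ± 0.025 against heterozygous). The exons of Vcl overlap those of Ap3m1 on the opposite strand over 25.5% of their length, and the strand setting of the counting is unknown here.

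Ptk2, focal adhesion kinase, the signalling enzyme of the adhesion, stood at 72.9 and 66.9 CPM in wild type, 54.9 and 55.9 CPM in heterozygous and 51.5 and 46.9 CPM in knockout. Wild type was highest and knockout lowest, and the fall was 1.42-fold in knockout (-0.51 ± 0.062, adjusted p = 4.3e-09) and 1.26-fold in heterozygous (-0.34 ± 0.062). Ilk, integrin-linked kinase, fell by less, -0.21 ± 0.034 in knockout and -0.12 ± 0.034 in heterozygous, from 223 and 224 CPM in wild type; 76.7% of its exons overlap those of Taf10 on the opposite strand. Lims1, PINCH-1, the third part of the complex with Ilk and Parva, fell in the heterozygous libraries (150.2 and 149 CPM against 163 and 166 CPM in wild type, -0.14 ± 0.038) and did not pass in knockout (0.016 ± 0.037). Pxn, paxillin, an adhesion scaffold, passed no test, with all libraries between 138 and 154 CPM. Calls of Ptk2 and Ilk in knockout against heterozygous (-0.17 ± 0.063 and -0.092 ± 0.034) were lost without heterozygous library 1 (adjusted p = 0.0516 and 0.201), heterozygous library 2 (Ptk2, 0.123), knockout library 1 (Ilk, 0.0538) and knockout library 2 (0.341 and 0.160), and that of Ilk in heterozygous against wild type without heterozygous library 2 (0.0749). With library totals alone Ptk2 and Ilk in knockout against heterozygous stood at -0.11 and -0.028 (adjusted p = 0.181 and 0.552).

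The tensins, which link actin to integrin tails, moved apart. Tns3 had the largest rise of the 41 in heterozygous against wild type, with 385 and 387 CPM in wild type, 542 and 540.0 CPM in heterozygous and 477 and 478 CPM in knockout. Heterozygous was highest, knockout next and wild type lowest, with no overlap: a 1.40-fold rise in heterozygous (0.49 ± 0.026, adjusted p = 7.76e-20) and a 1.24-fold rise in knockout (0.31 ± 0.026, adjusted p = 2.06e-13). Tns1 stood at 228 and 233 CPM in wild type, 245 and 243 CPM in heterozygous and 191 and 192 CPM in knockout. Its knockout libraries were below all others (-0.26 ± 0.033 against wild type, -0.35 ± 0.033 against heterozygous). The small rise in heterozygous against wild type (0.084 ± 0.033, adjusted p = 0.0372) was lost without any 1 of the 4 libraries compared (adjusted p from 0.0695 without the wild-type library 2 to 0.236 without the wild-type library 1, and 0.122 and 0.112 without heterozygous library 1 and 2), and with library totals alone (0.043, adjusted p = 0.314).

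Among 38 other tested adaptors and kinases of focal adhesions, 16 fell and 9 rose in knockout against wild type. In heterozygous against wild type 10 fell and 10 rose, 26.3% each way, where 19.7% of all tested genes fell and 19.2% rose. Between knockout and heterozygous 15 fell and 7 rose. Fhl1, a LIM domain protein, fell by 1.33 on the log2 scale in knockout and by 2.00 in heterozygous, while Sorbs2, an adaptor of the vinexin family, rose by 2.31 and 3.34. Lpp (-0.57 ± 0.03) and Csrp1 (-0.41 ± 0.031), relatives and partners of zyxin, fell in knockout. Among the 20 integrin subunits, the receptors that adhesions form on, 10 fell and 5 rose in knockout. Itga11 (-0.73 ± 0.032), Itga5 (-0.55 ± 0.029) and Itgb1 (-0.34 ± 0.02), which form collagen and fibronectin receptors, fell. The 5 that rose were Itga4 (0.75 ± 0.054), Itga3 (1.2 ± 0.11), Itgb3 (0.87 ± 0.068), Itga6 (0.17 ± 0.038) and Itgb7 (1.67 ± 0.63). Between heterozygous and wild type 6 integrin genes rose and 5 fell, among them Itga1 (1.04 ± 0.051) and Itga3 (1.80 ± 0.11) upward, with Itgb1 (-0.41 ± 0.02), Itga5 (-0.50 ± 0.029), Itgb5 (-0.18 ± 0.027), Itgav (-0.13 ± 0.031) and the scarce Itgb7 (-2.31 ± 0.85) as the 5 that fell, and in knockout against heterozygous 9 fell and 5 rose.

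The changes of the 7 small GTPases and kinases lay between -0.28 and 0.17 in the 3 comparisons. In knockout against wild type 2 fell, 1 rose and 4 did not pass; in heterozygous against wild type 3 fell and 4 did not pass; and in knockout against heterozygous 3 rose and 1 fell. Rhoa, the switch for stress fibres, stood at 528 and 527 CPM in wild type, 462 and 466 CPM in heterozygous and 511 and 534 CPM in knockout. The heterozygous libraries were below all others (-0.18 ± 0.026, adjusted p = 1.68e-07) and the knockout ones spanned the wild-type values (-0.014 ± 0.026). Rhob, an inducible relative, fell in both, from 206 and 197 CPM in wild type to 179 and 167 CPM in heterozygous and 169 and 164 CPM in knockout (-0.22 ± 0.038 and -0.27 ± 0.038). Cdc42, the switch for filopodia, stood at 537 and 534 CPM in wild type, 518 and 539 CPM in heterozygous and 566 and 575 CPM in knockout. It rose in knockout by 0.092 ± 0.026 (1.07-fold, adjusted p = 0.00336) and passed no test in heterozygous. Rac1, the switch for lamellipodia, passed in no comparison, with 372 and 371 CPM in wild type, 355 and 381 CPM in heterozygous and 374 and 402 CPM in knockout; 51.4% of its exons overlap those of Daglb on the opposite strand.

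The ROCK kinases, which phosphorylate myosin light chains, did not pass against wild type in either genotype. Rock1 stood at 100.04 and 97.2 CPM in wild type, 92.9 and 100.4 CPM in heterozygous and 108 and 105 CPM in knockout, and Rock2 at 231 and 229 CPM in wild type, 235 and 246 CPM in heterozygous and 214 and 221 CPM in knockout. In knockout against heterozygous Rock1 rose (0.14 ± 0.048, adjusted p = 0.0196) and Rock2 fell (-0.15 ± 0.034, adjusted p = 0.00048). Limk1, LIM kinase, which inactivates cofilin, fell in both from 36.4 and 40.1 CPM in wild type to 30.3 and 32.7 CPM in heterozygous (-0.28 ± 0.078) and 31.4 and 33.2 CPM in knockout (-0.24 ± 0.077). Leaving out 1 library ended several of these calls: Limk1 against wild type without wild-type library 2 (adjusted p = 0.179 in knockout and 0.0897 in heterozygous), knockout library 1 (0.105) or heterozygous library 1 (0.0611), and in knockout against heterozygous Cdc42 without heterozygous library 1 (0.0679) and Rock1 without that library (0.333) or knockout library 1 (0.135). With library totals alone Rock2 in knockout against heterozygous stood at -0.081 (adjusted p = 0.0508). Of 32 other small GTPases and regulators, 14 fell and 5 rose in knockout against wild type. Rnd3, which opposes RhoA, changed by -0.70 ± 0.042, the Rac activator Tiam1 by -0.97 ± 0.087 and Rhoc by -0.48 ± 0.043. The 5 that rose were Arhgap18 (0.90 ± 0.062), Arhgef11 (0.24 ± 0.05), Trio (0.14 ± 0.038), Dlc1 (0.12 ± 0.047) and Arhgef1 (0.10 ± 0.035). Heterozygous libraries had 11 lower and 8 higher, and in knockout against heterozygous 12 fell and 7 rose.

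The ERM linkers, which fasten cortical actin to the membrane, were lowest in the heterozygous libraries. Ezr, ezrin, had the largest fall of the 41 in that genotype, with 76.7 and 79.9 CPM in wild type, 47.8 and 51.8 CPM in heterozygous and 61 and 58.3 CPM in knockout. The 3 genotypes were apart: the fall was 1.57-fold in heterozygous (-0.65 ± 0.059, adjusted p = 2.21e-12) and 1.31-fold in knockout (-0.39 ± 0.058, adjusted p = 2.94e-07), and knockout stood above heterozygous by 0.26 ± 0.06. Msn, moesin, encoded on the X chromosome and more abundant, stood at 1361 and 1373 CPM in wild type, 1157 and 1178 CPM in heterozygous and 1328 and 1323 CPM in knockout. It fell in heterozygous (-0.23 ± 0.021, adjusted p = 2.51e-12) and did not pass in knockout (-0.044 ± 0.021, adjusted p = 0.0948), though both knockout libraries were below both wild-type ones. Of 8 tested partners of this family, 3 fell and 2 rose in knockout: the membrane receptor Cd44 (-0.10 ± 0.028), Anxa2 (-0.35 ± 0.023) and Slc9a3r2 (-0.95 ± 0.15) fell, and Slc9a3r1 (0.45 ± 0.053) and Nf2, merlin (0.19 ± 0.042), rose. In heterozygous Cd44 (-0.49 ± 0.028), Anxa2 (-0.35 ± 0.023) and S100a10 (-0.21 ± 0.05) fell and none rose.

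Because related genes encode proteins with overlapping tasks, their levels were set side by side per kilobase of exon. The ratio of Actb to Actg1 was 5.05 and 5.20 for wild type, 5.71 and 5.65 in heterozygous and 5.90 and 5.99 in knockout. Flna to Flnc went from 5.64 and 5.64 in wild type to 6.91 and 7.25 in heterozygous and 8.35 and 7.98 in knockout. Both ratios rose in that order with no overlap. The ratio of Myh9 to Myh10 had no such order: 11.5 and 12.3 in wild type, 9.42 and 8.97 in heterozygous and 19.1 and 18.1 in knockout. Myh9 was thus the more abundant transcript of this pair in every library, least so in heterozygous and most so in knockout. Diaph1 to Diaph3 stood at 2.68 and 2.99, 3.52 and 4.18, and 4.48 and 4.38 in the same order of genotypes, and Tns1 to Tns3 at 0.413 and 0.420, 0.316 and 0.315, and 0.280 and 0.281. Msn to Ezr was 9.23 and 8.93 in wild type against 12.6 and 11.8 in heterozygous and 11.3 and 11.8 in knockout, where the last genotypes met at 11.8. Actn1 and Actn4 were near parity, at 1.01 and 1.04 in wild type, 1.03 and 1.05 in heterozygous and 0.917 and 0.916 in knockout. Rhoa to Rhob ran from 0.804 to 1.02 over the 6 libraries and Rock1 to Rock2 from 0.303 to 0.387. These ratios are given as descriptions without a test.

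**Figure D3:**
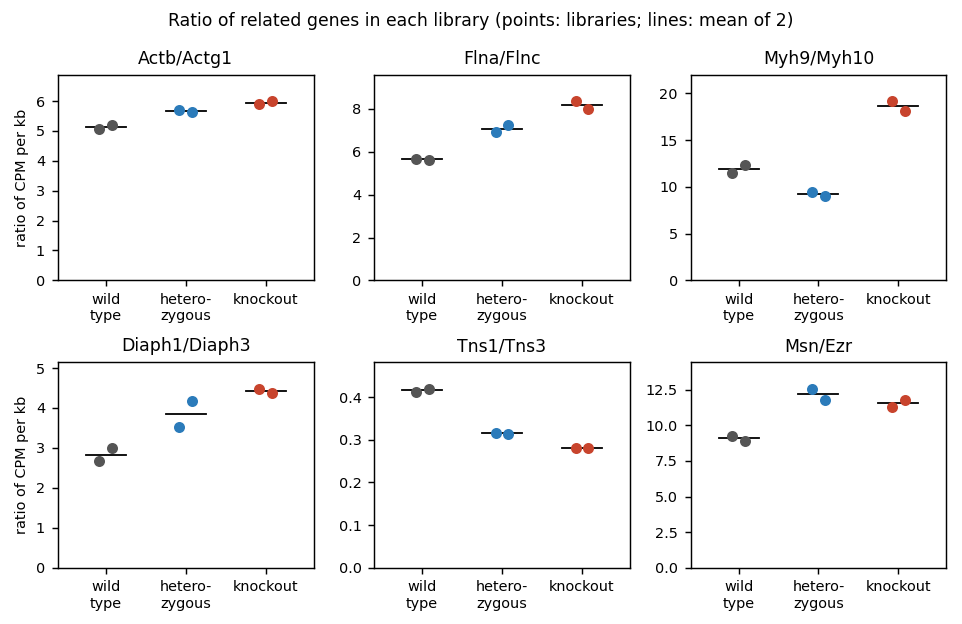
Ratio of CPM per kilobase for 6 pairs of related genes, with a point per library, a line at the mean of the 2 libraries of a genotype, and y axes that start at 0. The Flna to Flnc and Actb to Actg1 ratios rise from wild type to heterozygous to knockout, Tns1 to Tns3 falls in that order, and Myh9 to Myh10 is lowest in heterozygous at 9.42 and 8.97 and highest in knockout at 19.1 and 18.1.

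Genes that feed branched actin networks, which lie outside the 41, were counted too. Of 23 genes of the Arp2/3 complex and its activators, 9 rose (39.1%) and 7 fell (30.4%) in knockout against wild type, where 19.2% of all tested genes rose and 18.9% fell. Of the genes with a mean of at least 100 CPM, 36.7% rose and 34.9% fell. The 23 genes summed to 3973 and 3952 CPM in wild type. The subunits Arpc1b (0.28 ± 0.025) and Arpc3 (0.35 ± 0.034) were up, and the activators Cttn, cortactin (-0.45 ± 0.031), and Nckap1 (-0.59 ± 0.042) were down. Between heterozygous and wild type 5 fell and 4 rose, 21.7% and 17.4%, near the 19.7% and 19.2% of all tested genes: Nckap1 (-0.40 ± 0.042), Arpc5l (-0.37 ± 0.072), Cttn (-0.21 ± 0.031), Actr3 (-0.20 ± 0.029) and Actr2 (-0.085 ± 0.032) against Wasf3 (0.43 ± 0.14), Wipf1 (0.29 ± 0.042), Wasf2 (0.17 ± 0.032) and Arpc5 (0.14 ± 0.03). Of 24 genes for capping, severing and monomer binding, 10 fell and 6 rose in knockout, among them Pfn2 (-0.76 ± 0.068) and Tmsb10 (-0.24 ± 0.032) down and Capg (0.21 ± 0.028) up, and 8 fell and 8 rose in heterozygous. Of 11 other formins and Ena/VASP genes 4 fell (Daam2, Inf2, Fmnl2 and Fmnl3) and 3 rose (Fmnl1, Evl and Diaph2) in knockout, with Inf2 at -0.36 ± 0.037 and Fmnl1 at 0.45 ± 0.041; in heterozygous 4 rose and 2 fell, with Inf2 at -0.61 ± 0.038.

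Actin and adhesion genes typical of blood cells rose where most of the 41 fell. Of 23 tested, 19 rose and none fell in knockout against wild type, with a median of 0.49, against the 19.2% of all tested genes that were higher. Lcp1, the bundling protein of leukocytes, rose by 0.62 ± 0.022, the integrin genes Itgam and Itgb2 by 0.61 ± 0.023 and 0.61 ± 0.03, and the GTPase Rac2 by 0.73 ± 0.034. In heterozygous against wild type 13 rose and 5 fell, the latter being Parvg (-0.83 ± 0.11), Itgax (-0.82 ± 0.15), Itgal (-0.66 ± 0.096), Coro1a (-0.22 ± 0.041) and Hcls1 (-0.13 ± 0.042). In knockout against heterozygous 21 rose and none fell. The summed level of the list was 3769.9 and 3771 CPM in wild type, 4267 and 4250.2 CPM in heterozygous and 5576 and 5495 CPM in knockout. Macrophage markers moved as well: 13 of 17 rose and none fell in knockout against wild type, 9 rose and 4 fell in heterozygous against wild type, and 12 rose and 3 fell in knockout against heterozygous, and their part in these values was not tested.

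**Figure D4:**
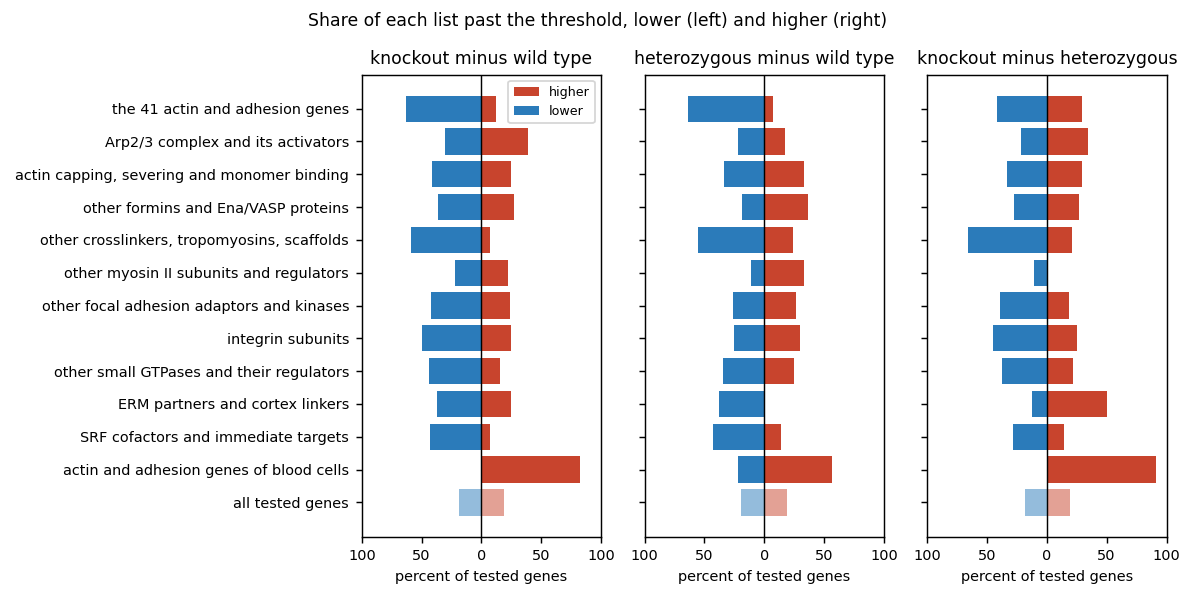
Percent of the tested genes of each list that passed the test as lower (blue, to the left of 0) or higher (red, to the right) in each comparison, with all 16061 tested genes in pale colours at the bottom. The 41 genes and the other crosslinkers lie mainly to the left in both comparisons with wild type. The blood cell genes lie to the right in both comparisons with knockout. In heterozygous against wild type 56.5% of them lie to the right and 21.7% to the left.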

How the data were processed

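RNA sequencing of 6 libraries was available as 1 table of read counts per gene symbol, deposited by the authors, with 1 column per library assigned by its title. The values are whole, and their sums differ between columns, so they were taken as unnormalized counts. Per the submitters' processing notes HISAT2 2.0.4 and GRCm38 were used. The counting program, annotation and strandedness were not given in the sources used here. No row lacked a gene name (0 entries).

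Counts were tested with edgeR 4.0.16 in R 4.3.3 (TMM factors, filterByExpr by genotype, robust quasi-likelihood fit of all 6 libraries with 3 residual degrees of freedom, two-sided F tests, Benjamini-Hochberg adjustment over 16061 genes). The procedure was run on simulated counts with known changes as a check of the code. Those counts had the same dispersion for every gene and far fewer changed genes than passed here. The run therefore cannot show that the calls hold in these data. Libraries of a genotype differed beyond sampling noise (chi-square per degree of freedom 3.72 to 3.80) and were counted separately. Alternatives were other scalings, filters and samples, a replicate block, DESeq2 1.42.0, a test against a fold of 1.2 and leaving out each library; counts over autosomal genes and over genes of at least 100 CPM were added after the data were seen. Exon lengths, positions and overlaps came from GENCODE vM21 (GRCm38), near-identical copies were genes of at least 95% identity over at least 200 aligned bases, and promoters came from RefSeq. The genes, the lists around them and the marker lists were chosen with earlier results of these data known. Every gene of the 41 could be named; of each other list the 4 genes with the smallest p in a comparison, or all of a count of 5 or fewer; 1 gene this rule names is not reported here.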

Additional observations from a re-analysis of the deposited data

How the results depend on the processing

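Of the genes among the 41 that passed the test, 15 of 31 in knockout against wild type, 9 of 29 in heterozygous against wild type and 8 of 29 in knockout against heterozygous kept their direction and their call in every alternative, among which the test against a fold of 1.2 lost the most calls. That test left 2814 of all genes in knockout against wild type, with 1 higher and 14 lower among the 41; 2598 in heterozygous against wild type, with 1 higher and 8 lower; and 2441 in knockout against heterozygous, with 1 higher and 7 lower. Library totals alone gave 11 lower in knockout against heterozygous. With the replicate number as a block, the 41 gave 5 higher and 26 lower, 3 higher and 26 lower, and 13 higher and 17 lower in the same order, and all genes 6080, 6222 and 5913; deviations of same-numbered libraries correlated at -0.024, -0.0047 and 0.018, so the numbers were not treated as pairs. Without 1 library at a time, the counts were 5 to 6 higher and 25 to 26 lower, 2 to 3 higher and 24 to 26 lower, and 10 to 13 higher and 14 to 17 lower. Where an arm was left with 1 library, that library was assumed to vary like the others. Actn4 in knockout against heterozygous missed the threshold with upper-quartile factors (adjusted p = 0.0590) and when wild type was left out of the fit (0.0661). With no filter it was missed by Pdlim5 (adjusted p = 0.0866) and Ilk (0.0598) in the same comparison and by Tns1 (0.0792) in heterozygous against wild type.

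Some small changes turned in sign, and the cause was not tested. With library totals alone they were Pxn (0.012) and Rhoa (0.0090) in knockout against wild type; Diaph1 (-0.019), Myh10 (-0.040), Tln1 (-0.0050) and Zyx (-0.010) in heterozygous against wild type; and Vasp (0.054), Flna (0.0055), Myl12a (0.047) and Rhob (0.014) in knockout against heterozygous, of which Flna had passed the test. Upper-quartile factors turned Cfl1 in knockout against wild type (-0.0025) and Myh9 in knockout against heterozygous (-0.00060), the fit of only the 4 libraries compared turned the latter (-0.00089), and no filter turned Myh10 in heterozygous against wild type (-0.0020). Without 1 library, changes in knockout against wild type ran from -0.035 to 0.047 for Cfl1, -0.074 to 0.051 for Pxn, -0.0026 to 0.036 for Lims1 and -0.046 to 0.018 for Rhoa. In heterozygous against wild type they ran from -0.16 to 0.087 for Pfn1, -0.0096 to 0.052 for Diaph1, -0.040 to 0.042 for Myh10, -0.070 to 0.041 for Rac1, -0.051 to 0.014 for Cdc42 and -0.090 to 0.029 for Rock1. In knockout against heterozygous they ran from -0.074 to 0.052 for Vasp, -0.020 to 0.094 for Limk1, -0.00031 to 0.025 for Myh9, -0.0017 to 0.029 for Actg1 and -0.0060 to 0.053 for Tpm4. None of the genes with these ranges had passed the test in that comparison.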

Other observations

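Pfn1, usually among the abundant transcripts of a cell, stood at rank 9082 of the 16061 tested genes with a mean of 12.2 CPM, far under Cfl1 at a mean of 1132 CPM. It lies at chr11:70651850-70654644 (GRCm38), in a stretch where neighbouring genes of wide expression were low too, a pattern noticed after the values were seen. Psmb6, a subunit of the proteasome core at chr11:70525367-70527858, had a mean of 2.39 CPM, whereas the other core subunits Psmb1 to Psmb5 and Psmb7 had means between 35.6 and 112 CPM. Rnf167, Spag7 and Eno3, next to Pfn1, had means of 0.555, 1.09 and 1.17 CPM. Kif1c, at chr11:70700548-70731964, had a mean of 85.1 CPM. Pfn1 passed no test between genotypes, and the cause of its low level was not tested.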
